A study of Mus musculus with 2 samples.

Results

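The iron genes Slc40a1, Hmox1, Fth1, Ftl1, Slc11a1 and Tfrc were followed through the single-cell libraries of the SLAMF3 knockdown experiment. They were chosen by name as the export, heme breakdown, storage and uptake genes of the macrophage iron cycle, and all 6 had a row of their own among the 56941 features of the deposited matrices. The choice was made with earlier results of these data known. Cells were obtained by positive selection for CD45 from liver metastases of C57BL/6 mice, which received MC38-LM3b cells, a liver-selected derivative of the MC38 colon carcinoma line, into the spleen at 6 to 8 weeks of age. The injected cells carried shScramble (Ctrl) or shSLAMF3 (KD), and lesions of 3 mice per group were pooled 2 weeks later into 1 library. The hairpin was in the tumor cells alone, so that every immune cell described here came from an unmodified host. Because each group was 1 library of pooled mice, the effect of the hairpin cannot be told apart from that of the library, no test was made, and the 95% intervals given in brackets reflect the number of molecules counted, not the spread between mice.

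A total of 67207234 UMIs (unique molecular identifiers, each standing for a captured RNA molecule) in 10416 cells made up the Ctrl library, and 64444715 UMIs in 10943 cells the KD library. After filtering, 19999 of 21359 cells remained, with medians of 5412 UMIs per cell in Ctrl and 4989 in KD, and 24 barcodes of these cells occurred in both libraries. Clusters were named from marker genes, which gave 4114 Ctrl and 3007 KD macrophages, 33 and 75 Kupffer-like cells, 804 and 2303 granulocytes, 2103 and 1134 T cells and 836 and 395 cycling T cells. Despite the CD45 selection, 150 Ctrl and 646 KD cells were endothelial-like and 161 and 96 were tumor- or fibroblast-like. Ly9, the gene of SLAMF3, had 12 Ctrl and 7 KD UMIs in the tumor- or fibroblast-like cells, too few to check the knockdown. Levels are given as CPM, the UMIs of a gene per 1000000 UMIs of the class, and a gene was called higher or lower where it had at least 50 UMIs, differed by more than 1.5-fold between libraries and had a counting interval that did not include equality.

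Tissue macrophages take up iron mostly as hemoglobin from aged red cells. Heme oxygenase 1 (Hmox1) opens the heme ring and frees the iron, ferritin, a shell of heavy (Fth1) and light (Ftl1) chains, stores it, and ferroportin (Slc40a1), the only known iron exporter of mammals, returns it to plasma. Kupffer cells, the resident macrophages of the liver, are a main site of this recycling. Slc11a1 (NRAMP1) moves iron and manganese out of the phagosome, and the C57BL/6 strain is known to carry a loss-of-function form of it. Tfrc encodes transferrin receptor 1, by which cells import transferrin-bound iron, and dividing cells are known for high levels of it. In iron-poor cells, iron regulatory proteins bind iron-responsive elements (IREs), which lowers translation where the element lies in the 5′ UTR and protects the mRNA where it lies in the 3′ UTR. UMIs measure mRNA and not translation, so that regulation through a 5′ element would not be seen in these data, whereas regulation through a 3′ element could be.

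The IREs of 4 of the 6 genes are shown because they determine which of the genes an mRNA count can follow. They were found in GENCODE vM21 transcripts (GRCm38 coordinates, a build other than the GRCm39 of the counts) as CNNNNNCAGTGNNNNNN on the transcript strand with 5 paired stem bases, and capitals mark the loop.
Fth1, 5′ UTR in exon 1, chr19:9982732-9982760, plus strand: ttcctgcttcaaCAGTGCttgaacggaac
Ftl1, 5′ UTR in exon 1, chr7:45459779-45459807, minus strand: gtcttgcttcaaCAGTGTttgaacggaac
Slc40a1, 5′ UTR in exon 1, chr1:45925465-45925493, minus strand: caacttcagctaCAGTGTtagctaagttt
Tfrc element 1, 3′ UTR in exon 19, chr16:32631219-32631247, plus strand: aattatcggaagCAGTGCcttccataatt
Tfrc element 2, the same exon, chr16:32631598-32631626: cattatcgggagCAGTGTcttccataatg
Tfrc element 3, the same exon, chr16:32631663-32631691: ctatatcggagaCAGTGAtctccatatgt
Tfrc element 4, the same exon, chr16:32631710-32631738: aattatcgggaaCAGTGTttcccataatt
The motif occurred in the 5′ UTR of 28 of 20857 genes (0.134%) and in the 3′ UTR of 127 of 20970 genes (0.606%), and a match is a description, not a measured binding site. No match was found in the UTRs of Hmox1 (chr8:75093621-75100589, plus strand) or Slc11a1 (chr1:74375195-74386062, plus strand).

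The 6 transcripts were distributed very differently over the cell classes. Macrophages made up 41.9% of cells in Ctrl and 29.5% in KD and held 81.9% and 72.1% of the Hmox1 UMIs, 85.3% and 65.1% of the Slc11a1 UMIs, 69.0% and 50.8% of the Fth1 UMIs and 71.4% and 64.7% of the Ftl1 UMIs. For Slc40a1 the picture was another one. Kupffer-like cells made up 0.336% of cells in Ctrl and 0.736% in KD but held 40.9% (37.7 to 44.1) and 32.6% (30.9 to 34.3) of its UMIs, whereas macrophages held 15.3% and 11.5%. For Tfrc the T cells and cycling T cells together came first in both libraries, with 28.2% and 40.2% of the Ctrl UMIs and 17.2% and 20.6% of the KD UMIs.

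**Figure D1:**
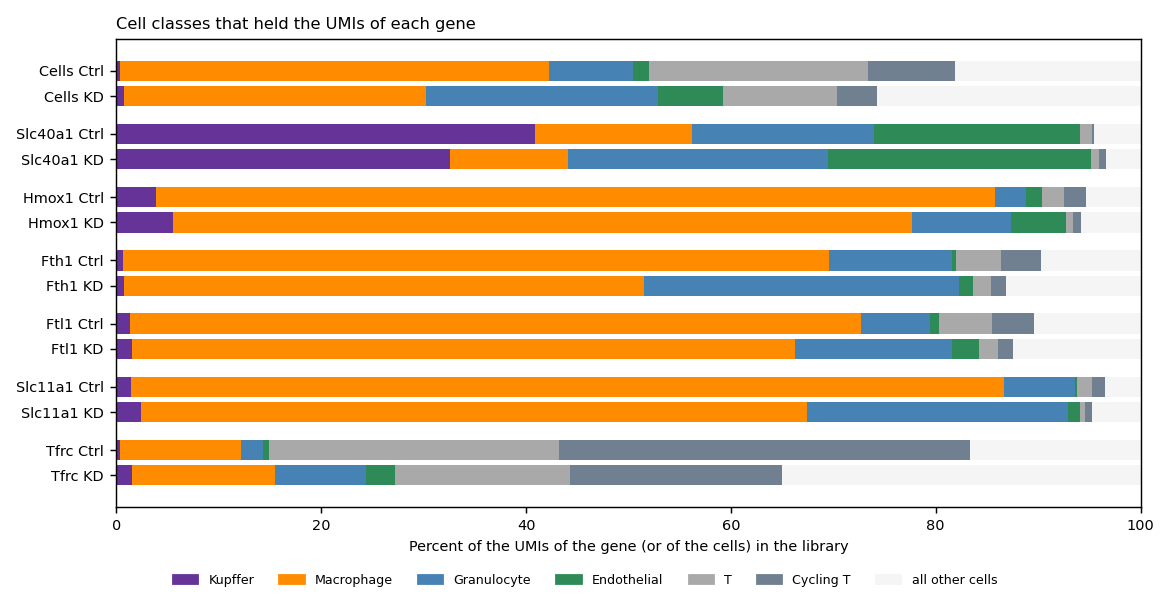
Share of the UMIs of each gene (percent, x axis) held by 6 cell classes and by all other cells, with 1 bar per gene and library and the shares of cells at the top. Kupffer-like cells hold 40.9% of the Ctrl and 32.6% of the KD UMIs of Slc40a1, and macrophages hold most UMIs of Hmox1, Fth1, Ftl1 and Slc11a1.

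Slc40a1, the iron exporter, was highest in Kupffer-like cells, with 1573 CPM (1421 to 1737) in Ctrl and 1778 CPM (1667 to 1895) in KD. At least 1 UMI was found in 31 of 33 Ctrl and 70 of 75 KD cells of this class, with medians of 8 and 11 UMIs per cell. Endothelial-like cells followed with 167 CPM in Ctrl and 174 CPM in KD, and granulocytes with 84.8 and 95.6 CPM. These 3 classes kept this order in both libraries with intervals that did not overlap, and in each of them the KD to Ctrl difference was below 1.5-fold, with a log2 ratio of 0.18 (0.0051 to 0.35) in Kupffer-like cells, 0.056 (-0.17 to 0.29) in endothelial-like cells and 0.17 (-0.069 to 0.42) in granulocytes. The Kupffer-like ratio moved beyond its interval in other settings. It was 0.55 with a stricter cell filter, where the class held 45 Ctrl and 71 KD cells. With the iron genes kept among the variable genes it was 0.54, from 48 and 83 cells. The part of cells that changed class in these values was not tested. The other named classes, macrophages included, were below 16 CPM. T cells, which served as the background for free RNA, stood at 0.822 CPM in Ctrl against 3.35 CPM in KD, a log2 ratio of 2.03 (0.91 to 3.23) from 11 and 21 UMIs. The 8 Kupffer markers were all detected in the Kupffer-like cells, at a summed 10486 and 10263 CPM, and in endothelial-like cells the same list reached 496 and 616 CPM, a value whose part in the endothelial Slc40a1 level was not tested. Of the endothelial-like cells with a Slc40a1 UMI, 66 of 73 in Ctrl and 309 of 345 in KD also held a UMI of Clec4f, Timd4, Cd5l, Vsig4, Marco or Clec1b, compared with 53 of 77 and 205 of 301 of the other endothelial-like cells. In granulocytes it was 2 of 126 and 36 of 542.

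In macrophages Slc40a1 was sparse. It had 146 UMIs in Ctrl and 336 in KD, or 5.54 CPM (4.67 to 6.51) and 14.2 CPM (12.7 to 15.8), a log2 ratio of 1.36 (1.07 to 1.65). The ratio was 2.09 with a stricter cell filter and 2.30 with the iron genes kept among the variable genes. Slc40a1 was the 1 member of 6 called in macrophages, where 5.69% of the 13347 genes with at least 50 UMIs were called higher and 8.92% lower. Few cells carried the signal. Slc40a1 was found in 49 Ctrl and 143 KD macrophages (1.19% and 4.76%), and 9 Ctrl and 18 KD cells with at least 5 UMIs held 94 and 148 of the UMIs. After every cell had been thinned to 1500 UMIs, the shares were 0.549% (0.340 to 0.839) and 1.35% (0.960 to 1.84), against 0.0484% (0.0012 to 0.269) and 0.806% (0.369 to 1.52) in T cells, so that at this depth the KD share in macrophages could not be separated from that in T cells. Median depths were 5592 and 7448 UMIs in macrophages and 5763 and 4849 in T cells. Of the macrophages with a Slc40a1 UMI, 17 of 49 in Ctrl and 54 of 143 in KD held a UMI of the 6 Kupffer genes named above, compared with 3.71% and 8.83% of the other macrophages. The summed Kupffer markers stood at 31.4 CPM in Ctrl and 75.2 CPM in KD macrophages and at 3.21 and 11.5 CPM in T cells, and their part in the Slc40a1 values was not tested. Of the 827 Ctrl and 1782 KD UMIs of this list in macrophages, 169 and 1069 lay in the Ltc4s+-like sub-cluster described below. Fabp7, a gene of the list, was among the leading genes of that sub-cluster. Without the macrophages that held a UMI of those 6 genes, which was tried after the data had been seen, 56 and 146 UMIs remained and the log2 ratio was 1.65.

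**Figure D2:**
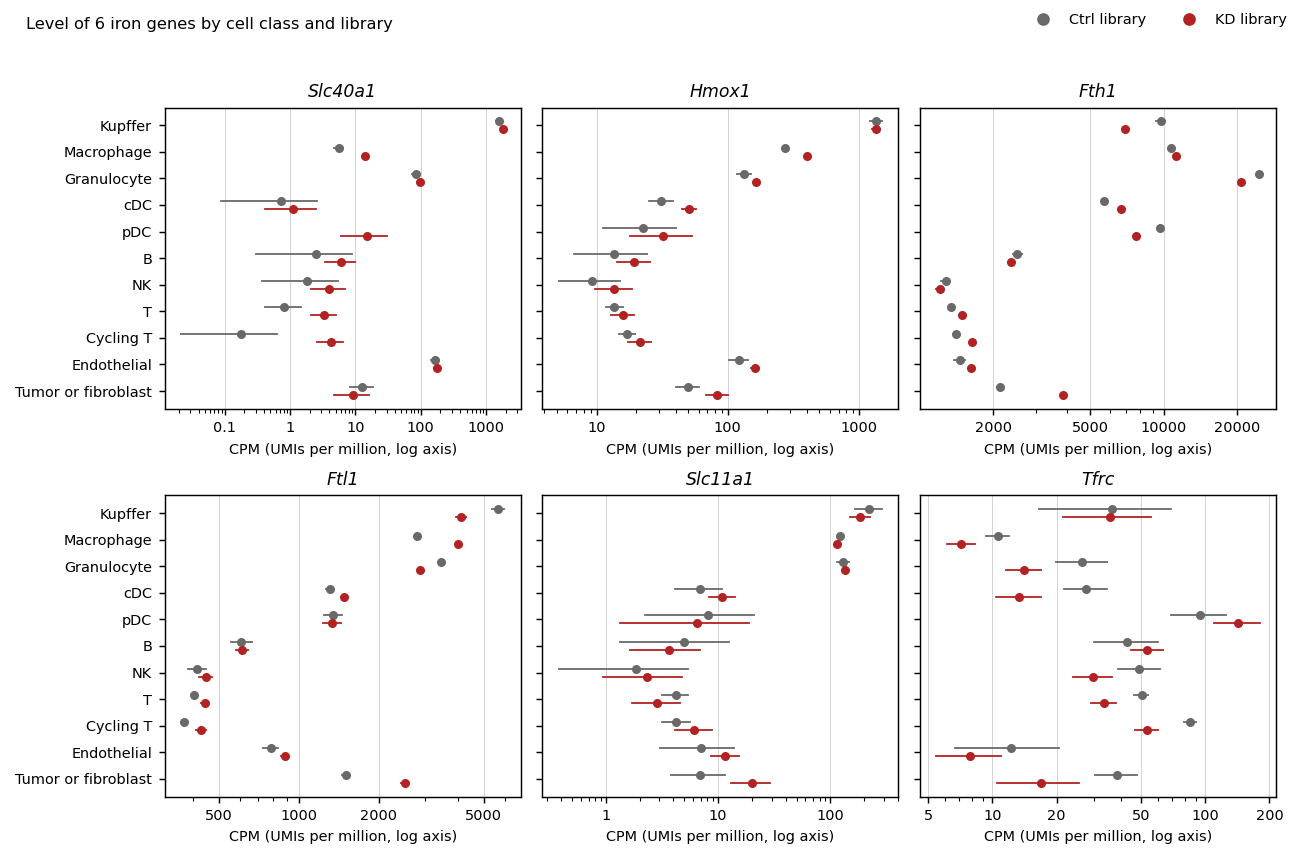
Level of each gene (CPM, log axis) in 11 cell classes, with points for the 2 libraries and lines for the 95% Poisson interval of counting error. Slc40a1 lies above 1500 CPM in Kupffer-like cells and below 16 CPM in macrophages of both libraries, and Tfrc lies lowest in macrophages and endothelial-like cells.

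Re-clustering of the macrophages without the iron genes gave 10 sub-clusters, of which 7 are described here by their leading genes. C1qc+ TAM-like cells (tumor-associated macrophages led by Ccl8, Mmp12, Vcam1 and C1qa) numbered 1152 in Ctrl and 1154 in KD. Inflammatory-like cells (Il1a, Il1b, Nos2, Tnf) numbered 1043 and 214. Raised in them were 7 of 8 markers of an inflammatory list and 8 of 8 of an interferon list. Vcan+ monocyte-like cells (Chil3, Vcan, but also the granulocyte markers S100a8, S100a9 and Mmp8) numbered 418 and 499, and cycling-like macrophages (Top2a, Birc5) 484 and 114. A Cadm1+ sub-cluster of low UMI content stayed unnamed, with 909 and 353 cells. The Ltc4s+-like cells (Ltc4s, Cxcl3, Pf4) with 12 and 513 cells and an unnamed Pf4+Arg1+ sub-cluster (Pf4, Ccl6, Arg1) with 1 and 50 cells came almost wholly from the KD library, so no level is given for their Ctrl cells. In the Ltc4s+-like cells 6 of 8 markers of an Ltc4s+ list and 6 of 8 of the inflammatory list were raised, so the names do not mark wholly distinct states. The remaining 3 sub-clusters held 95 Ctrl and 110 KD cells in all, and 2 of them were led by T cell and granulocyte genes or by B cell genes.

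Within the C1qc+ TAM-like cells, the sub-cluster with the most cells in both libraries, Slc40a1 was at 11.5 CPM in Ctrl and 12.6 CPM in KD, a log2 ratio of 0.13 (-0.26 to 0.51). The 14 Ctrl and 19 KD cells that also held a UMI of the 6 Kupffer genes carried most of these UMIs, and the cells without one held 24 of 106 UMIs in Ctrl and 50 of 127 in KD. In the KD library the Ltc4s+-like cells had more, 32.1 CPM (27.1 to 37.7), from 145 UMIs in 56 of 513 cells. The inflammatory-like, Vcan+ monocyte-like and cycling-like cells were below 4 CPM in both libraries, from at most 19 UMIs each, and the Cadm1+ cells were at 3.18 and 10.7 CPM from 9 and 11 UMIs. No Slc40a1 UMI was found in the 50 KD cells of the Pf4+Arg1+ sub-cluster, which allows a share of cells with a UMI of up to 6.0%, whereas the 22 KD cells led by B cell genes held 18. When the Ltc4s+-like and Pf4+Arg1+ cells were left out, which was decided after the data had been seen, the log2 ratio over macrophages went from 1.36 to 0.86. In the Ltc4s+-like cells, 27 of the 56 KD cells with a Slc40a1 UMI held a UMI of the 6 Kupffer genes, compared with 12.9% of the other cells. The summed Kupffer list stood at 236 CPM there, compared with 38.5 CPM in the KD C1qc+ TAM-like cells. Beyond the 6 genes that list holds Fabp7 and Folr2. Fabp7 was itself a leading gene of the Ltc4s+-like cells, so the sum is not a measure of Kupffer RNA alone.

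**Figure D3:**
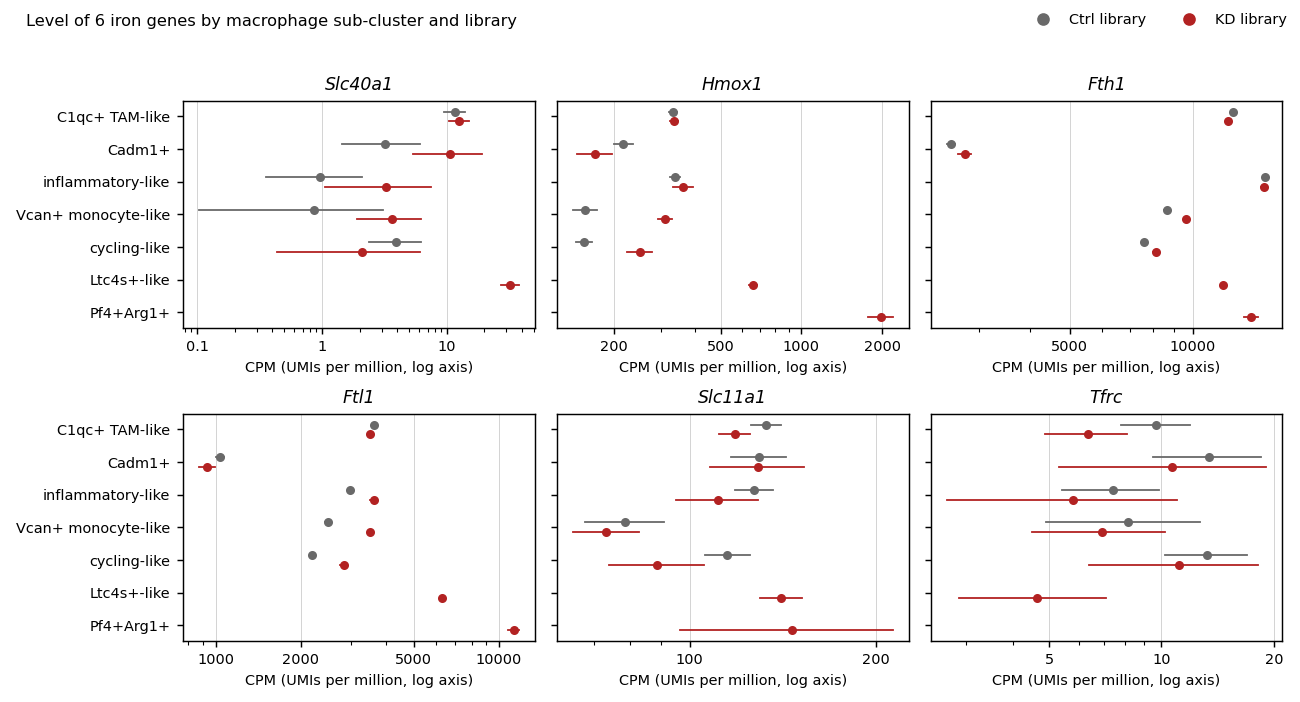
Level of each gene (CPM, log axis) in 7 macrophage sub-clusters, shown for groups of at least 20 cells with at least 1 UMI, with 95% Poisson intervals for counting error. The KD-only points of the Ltc4s+-like and Pf4+Arg1+ cells lie highest for Hmox1 and Ftl1, and the C1qc+ TAM-like cells of both libraries lie close together.

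Hmox1, the heme oxygenase, was also highest in Kupffer-like cells, with 1347 CPM in Ctrl and 1353 CPM in KD, a log2 ratio of 0.0069 (-0.18 to 0.20). Macrophages followed with 272 CPM (266 to 278) in Ctrl and 400 CPM (392 to 408) in KD. Their log2 ratio was 0.56 (0.51 to 0.60), just under the 1.5-fold limit of a call. Granulocytes had 132 and 164 CPM, endothelial-like cells 122 and 162 CPM, and tumor- or fibroblast-like cells 49.8 and 83.4 CPM. Granulocytes and endothelial-like cells did not differ from each other beyond counting error in either library. Conventional dendritic cells (cDCs) had 31.2 and 50.4 CPM, and the lymphocyte classes and plasmacytoid dendritic cells (pDCs) lay between 9.18 and 32.2 CPM. The ratio was called higher in cDCs (log2 0.69, 0.34 to 1.06) and in tumor- or fibroblast-like cells (log2 0.75, 0.34 to 1.15). Among cDCs, 7.57% of Ctrl and 14.5% of KD cells had high doublet scores. Their summed granulocyte markers stood at 67.2 and 1741 CPM and their macrophage markers at 1553 and 1435 CPM. The part of these in the Hmox1 and Tfrc values of cDCs was not tested.

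The Hmox1 difference was not spread evenly over the macrophages. In C1qc+ TAM-like cells the level was 333 CPM in Ctrl and 337 CPM in KD (log2 0.016, -0.054 to 0.087), and in inflammatory-like cells it was 340 and 363 CPM (log2 0.097, -0.040 to 0.23). In Vcan+ monocyte-like cells it was 156 and 310 CPM (log2 0.99, 0.82 to 1.16), and in cycling-like macrophages 155 and 250 CPM (log2 0.69, 0.50 to 0.87). The Cadm1+ cells went the other way, with 217 and 170 CPM (log2 -0.36, -0.61 to -0.11). Levels in the KD-only groups were higher than in all of these, with 662 CPM (639 to 686) in Ltc4s+-like and 1974 CPM (1776 to 2188) in Pf4+Arg1+ cells. Without these 2 groups the log2 ratio over macrophages was 0.25, and with the same sub-cluster weights in both libraries, where 12 Ctrl cells stand for the Ltc4s+-like group, it was 0.17. In Vcan+ monocyte-like cells the summed granulocyte markers stood at 1062 CPM in Ctrl and 5040 CPM in KD and the summed cycling markers at 239 and 786 CPM. Hmox1 in granulocytes was at 132 and 164 CPM. The part of these differences in makeup in the Hmox1 value of the sub-cluster was not tested.

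**Figure D4:**
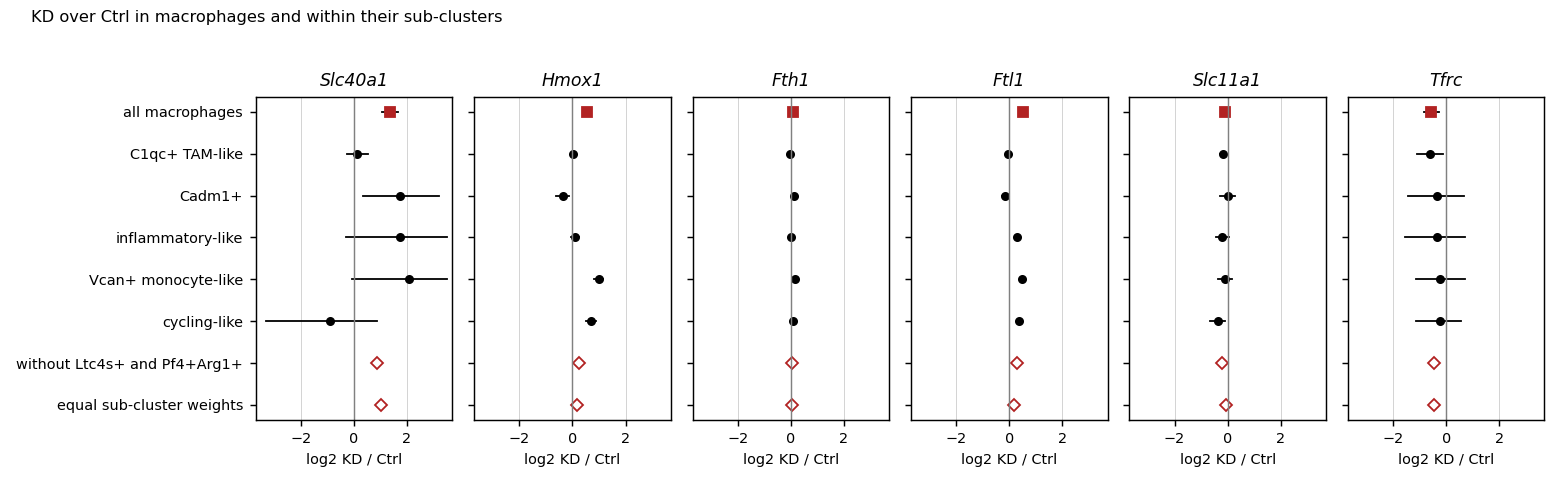
Log2 ratio of KD to Ctrl for each gene over all macrophages (red squares) and within 5 sub-clusters (black points), with 95% intervals for counting error drawn up to 3.5 either way, and 2 recalculations over macrophages (open diamonds). Hmox1 and Ftl1 lie near 0 in C1qc+ TAM-like cells and at 0.99 and 0.50 in Vcan+ monocyte-like cells.

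The ferritin chains were the most abundant of the 6 transcripts in every class. Fth1, the heavy chain with the ferroxidase site, was highest in granulocytes, at 24496 CPM in Ctrl and 20718 CPM in KD, followed in Ctrl by macrophages with 10692 CPM and by Kupffer-like cells (9716 CPM) and pDCs (9652 CPM), a pair not separated by counting error. In KD macrophages stood at 11201 CPM, pDCs at 7699 CPM and Kupffer-like cells at 6945 CPM. The difference in macrophages was small, with a log2 ratio of 0.067 (0.060 to 0.075), and within the 5 sub-clusters with both libraries it lay between -0.046 in C1qc+ TAM-like cells and 0.16 in Vcan+ monocyte-like cells. In Kupffer-like cells the log2 ratio was -0.48 (-0.56 to -0.41) and in granulocytes -0.24 (-0.26 to -0.23). The T, NK and endothelial-like classes were at 1209 to 1641 CPM in either library.

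Ftl1, the light chain that helps to nucleate the iron core, was highest in Kupffer-like cells, with 5671 CPM (5378 to 5975) in Ctrl and 4092 CPM (3923 to 4267) in KD, a log2 ratio of -0.47 (-0.57 to -0.37). In macrophages it stood at 2787 CPM (2767 to 2807) and 3978 CPM (3953 to 4003), a log2 ratio of 0.51 (0.50 to 0.53), which again stayed below the limit of a call. Granulocytes were at 3454 and 2879 CPM. As for Hmox1, the C1qc+ TAM-like cells hardly differed, with 3609 and 3493 CPM (log2 -0.047, -0.069 to -0.025), and the ratio was above 0 in the Vcan+ monocyte-like cells (2489 and 3508 CPM, log2 0.50), the cycling-like cells (2195 and 2828 CPM, log2 0.37) and the inflammatory-like cells (2980 and 3609 CPM, log2 0.28) and below 0 in the Cadm1+ cells (1036 and 932 CPM, log2 -0.15, -0.26 to -0.047). The KD-only groups had the most, with 6278 CPM in Ltc4s+-like and 11264 CPM in Pf4+Arg1+ cells. Over macrophages without these 2 groups the log2 ratio was 0.27. In tumor- or fibroblast-like cells both chains were called higher, Fth1 with 2131 and 3881 CPM (log2 0.86, 0.81 to 0.92) and Ftl1 with 1504 and 2514 CPM (log2 0.74, 0.67 to 0.81). The makeup of this class differed between libraries, with 4 keratin and Epcam genes at a summed 1479 CPM in Ctrl and 1523 CPM in KD, 4 collagen and Sparc genes at 2504 and 1353 CPM, the summed macrophage markers at 1035 and 1497 CPM, granulocyte markers at 134 and 729 CPM and T cell markers at 86.7 and 19.1 CPM. High doublet scores marked 21.7% of its Ctrl and 34.4% of its KD cells, and the part of all these in the values of Fth1, Ftl1, Hmox1 and Tfrc in this class was not tested.

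The ratio of heavy to light chain UMIs, which does not depend on the total of the class, varied several-fold between cell types, with some types not separated by counting error. Each UMI stands for 1 captured 3′ end, so the 2 genes were compared without a correction for length. Copies of ferritin genes with near-identical sequence can take reads away from Fth1 and Ftl1 in counting, which makes the absolute ratio uncertain. The ratio was 7.09 in Ctrl and 7.20 in KD granulocytes, 7.19 (6.62 to 7.81) and 5.75 (5.28 to 6.27) in pDCs, 4.14 and 3.85 in B cells, 3.82 and 3.83 in cycling T cells, 3.11 and 2.72 in NK cells, 4.33 and 4.51 in cDCs, 3.33 and 3.38 in T cells, 1.86 and 1.83 in endothelial-like cells, 1.71 (1.60 to 1.83) and 1.70 (1.61 to 1.79) in Kupffer-like cells and 1.42 and 1.54 in tumor- or fibroblast-like cells. In macrophages it was 3.84 (3.81 to 3.87) in Ctrl and 2.82 (2.80 to 2.84) in KD. Classes with similar values in both libraries could still hold clusters that differed, since the ratio was 10.1 and 5.60 in a granulocyte cluster of 31 Ctrl and 189 KD cells, 6.68 and 4.36 in one of 27 and 84 cells, and in the T cell cluster with the most cells 3.22 and 2.89. The C1qc+ TAM-like cells had 3.48 in both libraries. Lower ratios in KD were found in inflammatory-like cells (5.04 and 4.12), Vcan+ monocyte-like cells (3.46 and 2.74) and cycling-like cells (3.46 and 2.87), and a higher one in Cadm1+ cells (2.47 and 2.98). The KD Ltc4s+-like cells had 1.88 (1.86 to 1.91), within the interval of KD endothelial-like cells (1.76 to 1.90) and above that of KD Kupffer-like cells, and the Pf4+Arg1+ cells 1.23 (1.16 to 1.31).

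**Figure D5:**
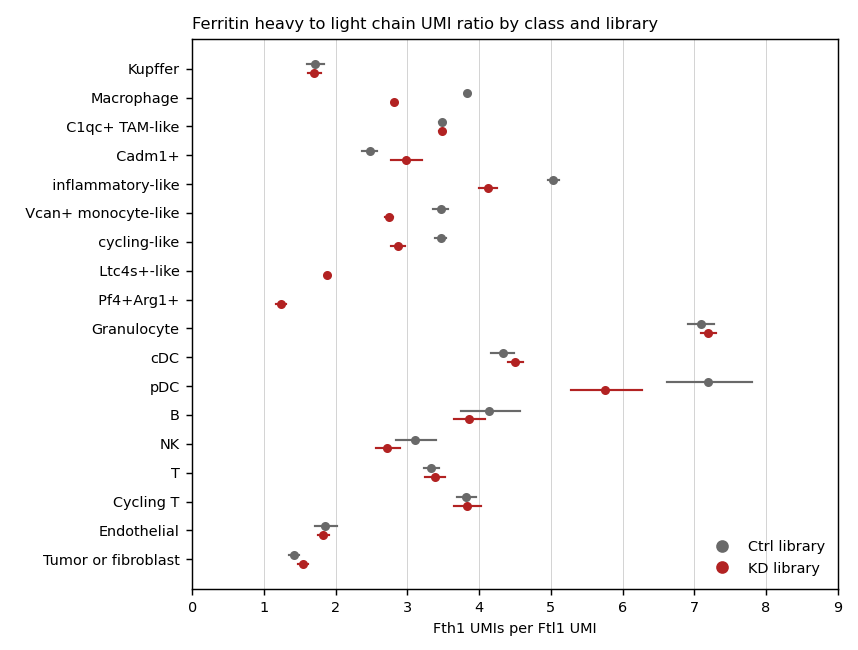
Fth1 UMIs per Ftl1 UMI (x axis) in classes and macrophage sub-clusters of each library with at least 20 cells, with 95% intervals for counting error. Granulocytes lie near 7 and Kupffer-like cells at 1.71 in Ctrl and 1.70 in KD, and macrophages lie at 3.84 in Ctrl and 2.82 in KD.

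Slc11a1, the phagosomal metal transporter, was highest in the phagocytes. Kupffer-like cells had 222 CPM (167 to 289) in Ctrl and 183 CPM (149 to 223) in KD, granulocytes 130 (115 to 147) and 136 CPM (127 to 144), and macrophages 123 (119 to 127) and 114 CPM (109 to 118). In Ctrl, granulocytes and macrophages did not differ beyond counting error. All other named classes were between 1.84 and 19.9 CPM. The log2 ratio was -0.11 (-0.19 to -0.040) in macrophages, and among their sub-clusters the cycling-like cells had -0.38 (-0.67 to -0.096), the C1qc+ TAM-like cells -0.17 (-0.29 to -0.054) and the Cadm1+ cells -0.0031 (-0.30 to 0.29). The KD Ltc4s+-like cells had 140 CPM and the Pf4+Arg1+ cells 146 CPM. Slc11a1 was not called in any class with at least 50 UMIs. With 14 and 26 UMIs the tumor- or fibroblast-like cells were under that limit, at 6.90 and 19.9 CPM and a log2 ratio of 1.53 (0.54 to 2.58). The deposited UMIs do not show the strain's protein form.

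Tfrc, the transferrin receptor, was lowest in the macrophages and endothelial-like cells. In Ctrl it was highest in pDCs with 93.9 CPM (68.7 to 125) and cycling T cells with 84.5 CPM (79.3 to 90.1), which were not separated by counting error, followed by T cells (50.1 CPM), NK cells (49.0 CPM), B cells (43.0 CPM), tumor- or fibroblast-like cells (38.4 CPM) and Kupffer-like cells (36.3 CPM, from 9 UMIs). cDCs had 27.6 CPM and granulocytes 26.4 CPM, and the lowest levels were those of endothelial-like cells (12.2 CPM) and macrophages (10.6 CPM). In KD the order from the top was pDCs with 142 CPM (110 to 180), B cells with 53.4 CPM and cycling T cells with 53.1 CPM, and macrophages again had the lowest level, 7.13 CPM, which in neither library was separated from that of endothelial-like cells (7.87 CPM in KD). The KD Pf4+Arg1+ cells had no Tfrc UMI and the KD Ltc4s+-like cells 4.65 CPM from 21 UMIs.

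The KD to Ctrl ratio of Tfrc was called lower in 6 classes. It was -0.67 (-0.88 to -0.47) on the log2 scale in cycling T cells, -0.59 (-0.82 to -0.36) in T cells, -0.72 (-1.18 to -0.27) in NK cells, -0.91 (-1.40 to -0.41) in granulocytes, -1.05 (-1.53 to -0.56) in cDCs and -1.19 (-1.94 to -0.49) in tumor- or fibroblast-like cells. In pDCs it was called higher, at 0.59 (0.028 to 1.17), and in B cells it was 0.31 (-0.23 to 0.89). In macrophages the log2 ratio was -0.57 (-0.85 to -0.29), from 279 and 169 UMIs, close to the limit but not called. It passed 1.5-fold with likely doublets left out (-0.71), in thinned cells (-0.70), without cells with a Kupffer marker UMI (-0.67) and without the sub-clusters led by genes of other classes (-0.64). The C1qc+ TAM-like cells had -0.61 (-1.10 to -0.13), and the point values of the 4 other sub-clusters with both libraries were between -0.35 and -0.23 with intervals that included 0. In granulocytes the summed T cell markers moved along with Tfrc, at 89.8 CPM in Ctrl and 54.6 CPM in KD, and their part in the Tfrc value was not tested. The T cells differed in makeup, since a cluster led by genes such as Prf1, Gzmb and Cd8a held 1773 of 2103 Ctrl and 623 of 1134 KD cells. Their summed cycling markers were at 894 and 713 CPM. The part of both in the Tfrc value of T cells was not tested.

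Calls of the 6 genes were then counted class by class and set beside the share of all genes called. The counts are descriptive only, since the 6 genes were chosen with earlier results of these data known. In Kupffer-like cells 0 of the 5 members with at least 50 UMIs were called (16.4% of all such genes), in granulocytes 1 of 6 (27.3%), in cDCs 2 of 5 (9.59%), in pDCs 1 of 3 (11.7%), in B cells 0 of 4 (6.95%), in NK cells 1 of 4 (7.49%), in T cells 1 of 5 (9.58%), in cycling T cells 1 of 5 (8.43%) and in endothelial-like cells 0 of 5 (14.5%). In tumor- or fibroblast-like cells 3 of the 4 members with at least 50 UMIs were called higher and 1 lower, where 4.88% of genes were called higher and 15.1% lower, from 161 and 96 cells.

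The values of the Kupffer-like and endothelial-like cells depended on the treatment of doublets and on other settings. Of the Kupffer-like cells, 18 of 33 in Ctrl and 25 of 75 in KD were among the cells of highest doublet score, and of the endothelial-like cells 41 of 150 and 108 of 646. When such cells were left out and the rest clustered again, 13 Ctrl and 48 KD Kupffer-like cells remained, and the log2 ratio of Slc40a1 in them was -0.16. In endothelial-like cells the log2 ratio of Hmox1 then went from 0.41 to -0.62 and that of Fth1 from 0.16 to -0.54. In Kupffer-like cells the Fth1 ratio went from -0.48 to -0.19 without likely doublets and to -0.24 with a stricter cell filter. The Ftl1 ratio there went from -0.47 to -0.62 and to -0.26. Over all settings these ratios stayed below 0, between -0.64 and -0.19 for Fth1 and between -0.62 and -0.26 for Ftl1. A single KD Kupffer-like cell held 2652 of the 2658 hemoglobin UMIs of the class, and leaving out the cells with at least 2 hemoglobin UMIs kept every member ratio of the class within its counting interval, with Tfrc, at 9 and 19 UMIs, going from -0.031 to 0.019.

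Of 84 other iron genes, 63 had at least 50 UMIs in macrophages. Of these 15 were called higher and 3 lower, where 5.69% of all 13347 genes were called higher and 8.92% lower. The gene lists were chosen with earlier results of these data known. This count and those of parts of the list below are therefore descriptive and no independent evidence. The median log2 ratio of the 63 was 0.18, compared with -0.034 over all genes. A list of 9 genes held transferrin, its second receptor, iron reductases and the metal transport genes Slc11a2 and Mcoln1. Of the 5 with at least 50 UMIs, 3 were called higher, where 5.69% of all genes were. Trf, transferrin itself, went from 57.9 to 158 CPM (log2 1.45), Steap3, the endosomal ferrireductase, from 4.70 to 9.79 CPM (log2 1.06), and Steap4, a related reductase, from 0.872 to 1.60 CPM (log2 0.88). Steap4 was highest in granulocytes, with 282 and 237 CPM, and the summed granulocyte markers stood at 224 CPM in Ctrl and 1226 CPM in KD macrophages, whose part in the Steap4 value was not tested. Unlike Hmox1 and Ftl1, Trf was higher within the C1qc+ TAM-like cells as well, with 70.2 and 171 CPM (log2 1.29, 1.16 to 1.42), and in the inflammatory-like (log2 1.38) and cycling-like cells (log2 1.48), but was at 63.3 and 69.6 CPM in the Vcan+ monocyte-like cells.

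Of the siderophore and lactoferrin genes, Lcn2 (lipocalin 2, which binds iron-carrying siderophores) went from 8.80 to 86.5 CPM (log2 3.30) and Ltf (lactoferrin) from 2.05 to 3.55 CPM (log2 0.79). Of the genes for heme and hemoglobin uptake, Cd163, the hemoglobin-haptoglobin receptor, had 2 and 81 UMIs (log2 5.49, 3.60 to 8.56), Hp (haptoglobin) 57.0 and 133 CPM (log2 1.22), and Hpx (hemopexin) was lower with 2.92 and 1.39 CPM (log2 -1.07). Lcn2, Ltf and Hp are granulocyte genes here, with 1784 and 4658 CPM, 361 and 492 CPM and 503 and 1109 CPM in that class. The part of the granulocyte markers in their macrophage values was not tested either. For Ltf, 3 Ctrl and 51 KD UMIs lay in Vcan+ monocyte-like cells. Of the KD Lcn2 UMIs in macrophages, 1674 of 2048 lay in Vcan+ monocyte-like cells. Of the KD Cd163 UMIs, 44 of 81 lay in Ltc4s+-like cells, and Cd163 in Kupffer-like cells was at 266 and 239 CPM.

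Of the 8 tested targets of the oxidative stress factors NRF2 and BACH1, which also control Hmox1 and the ferritin genes, 4 were called higher, where 5.69% of all genes were. Gclm, the modifier subunit of the first enzyme of glutathione synthesis, went from 21.2 to 42.1 CPM (log2 0.99), Slc7a11, the cystine transporter, from 151 to 258 CPM (log2 0.77), Gsr, glutathione reductase, from 184 to 323 CPM (log2 0.81), and Srxn1, sulfiredoxin, from 11.5 to 17.5 CPM (log2 0.61). Slc7a11 and Gsr were highest in granulocytes, with 1929 and 1195 CPM and 1049 and 1432 CPM, and the part of the granulocyte markers given above in their macrophage values was not tested. The 2 factors themselves were not called, with log2 ratios of 0.077 for Nfe2l2 and 0.25 for Bach1. Within the C1qc+ TAM-like cells Gclm was at 21.9 and 22.9 CPM, and in Vcan+ monocyte-like cells at 32.9 and 73.5 CPM (log2 1.16, 0.79 to 1.54). The log2 ratio of Gsr was 0.42 in C1qc+ TAM-like, 0.20 in inflammatory-like, 0.19 in Vcan+ monocyte-like, 0.17 in cycling-like and 0.50 in Cadm1+ cells. Each of these was below 1.5-fold. In the same order Slc7a11 had 0.33, 0.78, 0.66, -0.34 and 0.59, and Srxn1 0.32, 1.25, 0.72, -0.70 and 0.97. The KD Ltc4s+-like cells were at 411 CPM for Slc7a11 and 433 CPM for Gsr.

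Among the sensing and hepcidin genes, Aco1 (iron regulatory protein 1) went from 16.8 to 25.3 CPM (log2 0.59), Hfe, which helps to sense transferrin iron, from 19.2 to 37.6 CPM (log2 0.97), and Bmp2 from 27 to 69 UMIs (log2 1.51), while Neo1 was lower with 48 and 23 UMIs (log2 -0.91). Spic, a transcription factor of iron-recycling macrophages, had 3.98 and 6.37 CPM (log2 0.68). Its log2 ratio was 0.54 in C1qc+ TAM-like, 2.33 in inflammatory-like, -0.69 in Vcan+ monocyte-like, 0.53 in cycling-like and -0.28 in Cadm1+ cells. Spic was highest in Kupffer-like cells (210 and 146 CPM) and Bmp2 in endothelial-like cells (892 and 721 CPM). Of the Bmp2 UMIs, 6 in Ctrl and 27 in KD lay in Ltc4s+-like cells. The part of Kupffer or endothelial RNA in these values was not tested. Slc25a37, the mitochondrial iron importer mitoferrin 1, was lower with 36.3 and 21.5 CPM (log2 -0.76). None of the 5 genes of heme breakdown and export, 8 of heme synthesis and 4 of ferritin handling with at least 50 UMIs was called. Closest was Blvrb, a biliverdin reductase, with 392 and 265 CPM (log2 -0.56, -0.61 to -0.52), which within the C1qc+ TAM-like cells was at 514 and 323 CPM (log2 -0.67, -0.74 to -0.61).

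Outside the macrophages, the other iron genes with at least 50 UMIs were called as follows, with the share of all genes called in either direction beside each class. In Kupffer-like cells (16.4%) 2 of 23 were higher and 3 lower, from Lcn2 (log2 2.62) to Nfe2l2 (log2 -1.12), and in granulocytes (27.3%) 7 of 41 were higher and 2 lower, from Lcn2 (1.38) to Mafk (-0.72). In T cells (9.58%) 4 of 54 were higher and 4 lower, from Lcn2 (3.84) to Ltf (-2.58), and in cycling T cells (8.43%) 6 of 54 and 3, again from Lcn2 (4.49) to Ltf (-3.41). In cDCs (9.59%) 7 of 46 were higher and 1 lower, from Lcn2 (6.14) to Hif1a (-0.65), in pDCs (11.7%) 2 of 17 and 1, from Trf (1.81) to Hif1a (-0.71), and in NK cells (7.49%) 0 of 35 and 2, from Slc25a28 (0.51) to Blvrb (-0.92). In B cells (6.95%) 0 of 25 were called, with values from 0.49 for Slc25a37 to -0.53 for Hif1a. Endothelial-like cells (14.5%) had 6 of 53 higher, among them Lcn2 with 0 and 191 UMIs, and 2 lower, down to Cpox (-0.78), and tumor- or fibroblast-like cells (4.88% higher and 15.1% lower) 3 of 48 higher and 11 lower, from Slc7a11 (0.91) to Me1 (-1.19). Lcn2 thus had the highest ratio in 6 of these classes. The summed granulocyte markers went the same way in those outside the granulocytes for which they are given here, with 66.6 and 442 CPM in T cells, 31.3 and 1644 CPM in endothelial-like cells and 181 and 3316 CPM in Kupffer-like cells, and their part in the Lcn2 values was not tested.

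The genes most like each member in pattern were sought by Pearson correlation of log2(CPM + 1) over 30 points, the 15 classes and sub-clusters with at least 50 cells in each library, among 13246 genes. The points of a library share its depth and free RNA, and no p-value was computed. For Slc40a1 the nearest 5 were Gm31619 (r = 0.83), Arap3, Rasip1, Klf7 and Vsig4 (r = 0.80), in a set that left out the Kupffer-like cells for their number. With these cells included, in 32 points, the nearest were Vsig4 (r = 0.88), Cd5l, Clec4f, Dmpk and Lepr, 3 of them Kupffer markers. Hmox1 was nearest to Pla2g7 (r = 0.95), Cd302, Gm31223, Tgfbi and Slc11a1 (r = 0.92), and Slc11a1 to Klra2 (r = 0.97), Pilra, Atp6v1b2, C5ar1 and Pla2g7. Fth1 was nearest to Atp6v0c (r = 0.91), Atp6v0b, Ftl1 (r = 0.91), Fth1-ps and Alox5ap, and Ftl1 to Aldh3b1 (r = 0.94), Atp6v0c, Atp6v0b, Bri3 and Gabarap, where the Atp6v0 genes encode parts of the proton pump of acid organelles. Tfrc was nearest to Traf4 (r = 0.92), Rabgap1l, Tmem163, Gm36975 and Rmnd5b. Its correlation with Hmox1 was -0.82, and -0.62 in the 32 points with the Kupffer-like cells included.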

How the data were processed

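CD45+ cells from liver metastases were profiled by 10x Genomics 3′ single-cell RNA sequencing in 2 libraries, 1 per hairpin. The deposited values are raw UMI counts per gene and barcode, for which the authors used Cell Ranger 7.1.0 and GRCm39 (processing notes of the submitters, which also name Seurat 5.1.0 and R 4.4.1). The annotation release is not given in the sources used here. Filters removed cells under 200 or over 6000 genes, over 30000 UMIs or over 10% mitochondrial UMIs. Clustering used log-normalized values (Seurat 5.3.0 in R 4.3.3) of 2000 variable genes without the iron genes, 20 principal components and resolution 0.5, with no doublets removed. Macrophages were re-clustered in the same way. The sub-clusters shift somewhat with the kernel of the numerical library, which was fixed.

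Clusters were named where at least 3 markers had a log2 fold of at least 1 in at least 10% of cells. UMIs were summed per class. CPM have exact Poisson, log2 ratios exact conditional binomial and shares of cells Clopper-Pearson 95% intervals. A count of 0 was given an upper limit of 3 counts. PCR copies are collapsed by UMI, and intervals cover counting error only. Shares of cells were also taken after thinning each cell to 1500 UMIs (745 Ctrl and 593 KD cells were shallower and left out). The scripts were tested on simulated data.

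The 6 members and the gene lists were chosen with earlier results of these data known. Named were the members, the other iron genes called in macrophages (elsewhere the highest and lowest ratio), and the 5 genes nearest in pattern to each member, with at least 200 UMIs. Other names were chosen after their values were seen. Alternatives were TMM scaling (edgeR 4.0.16), a stricter cell filter (at least 500 genes, at most 5% mitochondrial), removal of the highest Scrublet scores (scanpy 1.11.5) at 0.8% per 1000 cells, resolution 1.0, iron genes kept among the variable genes, thinned cells, cells with 2 or more hemoglobin UMIs left out and equal sub-cluster weights, and, after the data had been seen, macrophages without cells with a Kupffer marker UMI, without sub-clusters of over 90% from 1 library and without those led by genes of other classes.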

Additional observations from a re-analysis of the deposited data

How the results depend on the processing

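With 1 library per group no replicate could be left out. No paired analysis was possible because each group has 1 library. All 66 recalculated member ratios in macrophages kept their direction. For Slc40a1 (1.36 on the log2 scale in the report) they were 2.09 with the stricter cell filter, 2.30 with the iron genes kept among the variable genes, 1.02 with equal sub-cluster weights, 0.86 without the sub-clusters mostly of 1 library and 1.65 without cells with a Kupffer marker UMI. In the equal weights, 12 Ctrl cells with 0 Slc40a1 UMIs stand for the Ltc4s+-like group, against 145 UMIs in its KD cells. For Hmox1 (0.56) they were 0.60 with TMM scaling, 0.48 in thinned cells, 0.17 with equal weights, 0.25 without the sub-clusters of 1 library and 0.50 without Kupffer marker cells, so that TMM scaling would have taken it past the 1.5-fold limit. For Fth1 (0.067) the values were 0.11 with TMM, 0.045 with the stricter filter, 0.11 in thinned cells, 0.028 with equal weights, 0.044 without the sub-clusters of 1 library and 0.050 without Kupffer marker cells. For Ftl1 (0.51) they were 0.56 with TMM, 0.59 in thinned cells, 0.17 with equal weights and 0.27 without the sub-clusters of 1 library, where Slc11a1 was at -0.20. The settings without sub-clusters of 1 library or Kupffer marker cells were chosen after seeing the data. Of 69 iron genes with at least 50 UMIs, members included, 19 were called past 1.5-fold in macrophages, 8 past 2-fold, 20 with TMM scaling, and 21 of 77 with at least 10 UMIs. At the main setting 14.6% of all 13347 genes with at least 50 UMIs were called in either direction, and the iron list was chosen with earlier results of these data known. No share of all genes is given for the other settings, so those counts cannot be set against a background. Tfrc (-0.57) passed 1.5-fold in 4 settings, down to -0.71. With likely doublets left out, 4 ratios whose intervals had not included 0 changed sign, namely Slc40a1 in Kupffer-like cells (-0.16) and Hmox1 (-0.62), Fth1 (-0.54) and Ftl1 (-0.030) in endothelial-like cells. In the same setting, 5 ratios whose intervals had included 0 also changed sign, namely Hmox1 (-0.49), Slc11a1 (0.27) and Tfrc (0.97) in Kupffer-like and Slc11a1 (-1.32) and Tfrc (0.12) in endothelial-like cells. In thinned cells the sign changed for Slc40a1 (-0.34), Slc11a1 (-1.20) and Tfrc (0.39) in endothelial-like and Hmox1 (-0.23) in Kupffer-like cells. In further settings it changed only in Kupffer-like cells, for Hmox1 (-0.0076 at resolution 1.0) and Tfrc (0.069 with the stricter filter, 0.0084 with iron genes kept, 0.019 without hemoglobin cells). Of 167 recalculated ratios in Kupffer-like, endothelial-like and T cells and granulocytes, 150 kept their direction. The causes were not tested.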
